A study of Drosophila melanogaster with 16 samples.

Results

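Aminoacyl-tRNA synthetase genes numbered 35 of the 13946 protein-coding genes on the main fly chromosomes. Their symbols, an amino acid abbreviation or a subunit name followed by RS, were looked up in RefSeq's gene list for Release 6 of the fly genome. Genes whose symbol ends in -m encode the mitochondrial enzymes (15 genes) and the others were counted as cytosolic (20 genes). The study compared heads of old and young male *Drosophila melanogaster* of the w1118 strain, a white-eyed laboratory stock labelled as wild type and kept at one temperature and light cycle. Chromatin of heads at day 50 and at day 10 of adult life was digested with micrococcal nuclease and precipitated with an antibody against H3K27ac or against H3K4me1, with an input sample beside each precipitate. The 16 samples form 8 groups of 2 replicates. Each replicate was made from 50 mg of heads, so from many pooled flies, and the deposited values used here are 4 peak lists, 1 for each mark and age, called by the authors on both replicates together.

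Aminoacyl-tRNA synthetases attach each amino acid to its tRNA and so supply every ribosome with charged tRNA. The cytosolic set serves translation of nuclear messages, and the mitochondrial set, also encoded in the nucleus, serves the few proteins made inside mitochondria. Acetylation of histone H3 at lysine 27 (H3K27ac) is found at active promoters and enhancers. Lysine 4 of the same histone carries a single methyl group (H3K4me1) at enhancers and along the bodies of transcribed genes.

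For each gene the measured value is the share of its region, from 1000 bp before its lower to 1000 bp past its upper coordinate, that lies under peaks of one list. Differences are day 50 minus day 10 in percentage points. More or less of a mark at a gene, and higher or lower, refer to this share and not to the strength of the signal. With 1 list per mark and age there is no spread between replicates and no test, so each difference describes 2 lists, and read depth is unknown. Whole heads mix cell types, so a change of a mark within cells and a change in the number of cells that carry it cannot be told apart. The region of every one of the 35 genes reached into the body of another protein-coding gene, over a median of 35.7% of its length, and peaks there count for both genes. The tissue label was checked at marker genes. The neuronal genes elav, nSyb, Syt1 and brp carried both marks at both ages, as did the photoreceptor genes trp and inaD, the glial gene moody and the fat body gene Lsp2. Of the other photoreceptor genes, ninaE carried H3K4me1 at both ages and H3K27ac at day 50 only, and chp carried H3K4me1 at day 10 only. The glial gene repo carried H3K4me1 alone, and the yolk protein gene Yp1, listed for the fat body, carried neither mark. Among genes of other tissues, the midgut genes alphaTry and betaTry and the germline gene bam carried neither mark, while the midgut gene lab carried H3K4me1 at both ages, the germline gene aly H3K4me1 at day 50 only, and the germline genes vas and can both marks.

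Nearly all synthetase genes had more of their region under H3K27ac peaks at day 50 than at day 10. The share of the region under H3K27ac peaks was higher at day 50 for 32 of 35 genes and lower for 3, GlnRS, HisRS and ProRS-m. Over all protein-coding genes it was higher for 47.1% and lower for 18.5%, and over the 9171 genes with an H3K27ac peak at either age it was higher for 71.6% and lower for 28.1%. The median difference was 3.84 percentage points over the synthetase genes and 1.73 over all genes with an H3K27ac peak. A difference of at least 5 points upward was found for 15 synthetase genes, against 2499 of those 9171 genes and 17.9% of all genes. One of at least 5 points downward was found for 0, against 532 of the 9171 and 3.81% of all genes. Together the regions had 35.6 kb under H3K27ac peaks at day 50 and 26.5 kb at day 10.

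**Figure D1:**
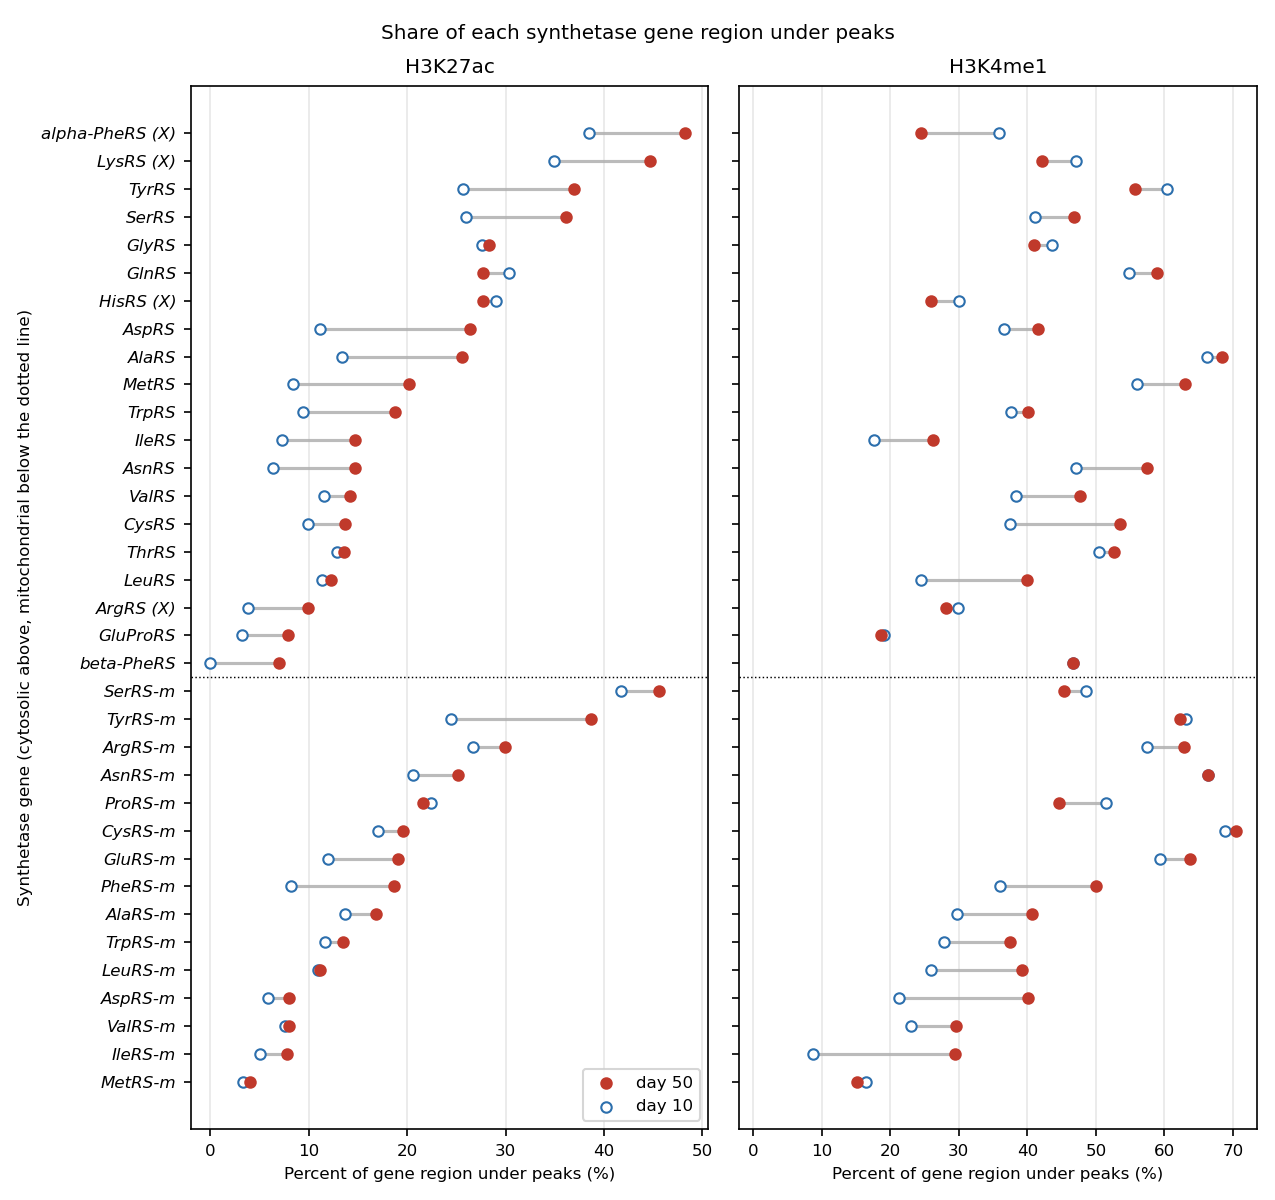
Percent of each synthetase gene region (the gene and 1000 bp beyond each end) under H3K27ac peaks (left) and H3K4me1 peaks (right), 1 row per gene, filled red points for day 50 and open blue points for day 10, with 1 peak list behind each. H3K27ac points at day 50 lie right of those at day 10 in 32 of 35 rows, while H3K4me1 points lie right in 23 and left in 11.

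Among the cytosolic enzymes, 18 of 20 genes had the higher H3K27ac share at day 50, and their median difference was 7.18 points. AspRS, the aspartyl-tRNA synthetase, had 26.4% of its region under H3K27ac peaks at day 50 and 11.1% at day 10, the largest difference of the 35 genes. AspRS (2R:12877004-12883168) shares part of its region with Nmda1. Its 5 peaks at day 50, against 3 at day 10, lay inside the gene body or toward the neighbour Lfg and not within 500 bp of either gene end, and 1273 bases were covered at day 50 only. AlaRS, the alanyl-tRNA synthetase, had 25.5% at day 50 and 13.4% at day 10 with 3 peaks at each age. Here no peak was added: the peak on the side of CG13392 was 763 bp wide at day 50 and 204 bp wide at day 10. Within the body of AlaRS (2L:8378262-8381764) alone the difference was 0.143 points. MetRS, the methionyl-tRNA synthetase that also charges the initiator tRNA, had 20.2% and 8.34% at days 50 and 10. A peak of 550 bp with its summit 142 bp inside the upper gene end was present at day 50 and had no counterpart at day 10. TyrRS, the tyrosyl-tRNA synthetase, had 36.9% at day 50 and 25.7% at day 10, with 3 peaks at each age. Its gene body held 460 of 1461 covered bases at day 50 and 320 of 1015 at day 10. A peak in its neighbour GluRS-m, 740 bp wide at day 50 and 463 bp at day 10, counts for both genes. SerRS, which charges serine tRNA and in animals also the selenocysteine tRNA, had 36.1% at day 50 and 26.0% at day 10, and its peak inside the upper end measured 616 bp at day 50 and 353 bp at day 10.

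beta-PheRS, the beta subunit of the cytosolic phenylalanyl-tRNA synthetase, was the one synthetase gene with no H3K27ac peak at day 10. At day 50 the gene (3R:24250460-24252679) had 2 peaks of 148 bp each inside its upper end, 7.01% of the region, with fold enrichments of 2.37 and 2.76. Those widths are close to 147 bp, the narrowest peak in any list. The gene of the alpha subunit, alpha-PheRS, which lies on X, had the highest H3K27ac share of all synthetase genes at day 50, 48.2%, and 38.5% at day 10. Of the alpha-PheRS bases under H3K27ac peaks, 700 of 1783 at day 50 and 419 of 1423 at day 10 lay in the gene body. The strongest peaks of its region at both ages had their summits in the neighbours CG17982 and CG2129. By share of the region, neighbours included, the genes for both subunits were thus at opposite ends of the cytosolic set. Both were higher at day 50.

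The mitochondrial enzymes had the higher H3K27ac share at day 50 for 14 of 15 genes, with a median difference of 2.83 points. TyrRS-m, which charges mitochondrial tyrosine tRNA, had 38.7% at day 50 and 24.5% at day 10 and had a peak of 164 bp at day 50 with no counterpart at day 10. The body of TyrRS-m held 448 of 1461 covered bases at day 50 and 266 of 923 at day 10. PheRS-m, the mitochondrial phenylalanyl-tRNA synthetase, had 18.7% at day 50 and 8.21% at day 10. Its peak inside the lower gene end was 496 bp wide at day 50 and 295 bp wide at day 10, while its fold was 3.43 at day 50, rank 4810 of 25432 in that list, and 4.71 at day 10, rank 265 of 26694. SerRS-m had the highest share of the mitochondrial set, 45.6% at day 50 and 41.8% at day 10, but its region overlaps Nagk, in whose body all 4 of its peaks at each age have their summits. MetRS-m had the lowest, 4.06% at day 50 and 3.34% at day 10, in the longest region of the set (12.9 kb). LeuRS-m, with 11.2% and 11.0% at days 50 and 10, and ValRS-m, with 7.99% and 7.59%, differed by less than 1 point.

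Of the 3 genes with less H3K27ac at day 50, GlnRS, the glutaminyl-tRNA synthetase, had 27.7% at day 50 and 30.3% at day 10. HisRS, the histidyl-tRNA synthetase, had 27.7% and 29.1%, and ProRS-m 21.6% and 22.4%, at days 50 and 10. These differences were -2.60, -1.40 and -0.87 points. That of ProRS-m was -10.5 points in the better-scoring 50% of the peaks. Among peaks reaching -log10 q 5, HisRS was 1.72 points higher at day 50, and within its gene body GlnRS was 0.0407 points higher. HisRS lies within the gene Bx, and 92.0% of its region falls in the bodies of other genes, the highest value of the set.

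Set side by side, both enzymes of 12 amino acids were available as a cytosolic and a mitochondrial gene. The H3K27ac difference was larger for the cytosolic gene in 11 of 12, all but tyrosine. With the bases that lie in other genes left out this count was 7 of 12, and with gene bodies alone 8 of 12. The count thus depended on the bases outside the gene and in its neighbours. For H3K4me1 the cytosolic gene had the larger difference in 6 of 12.

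**Figure D2:**
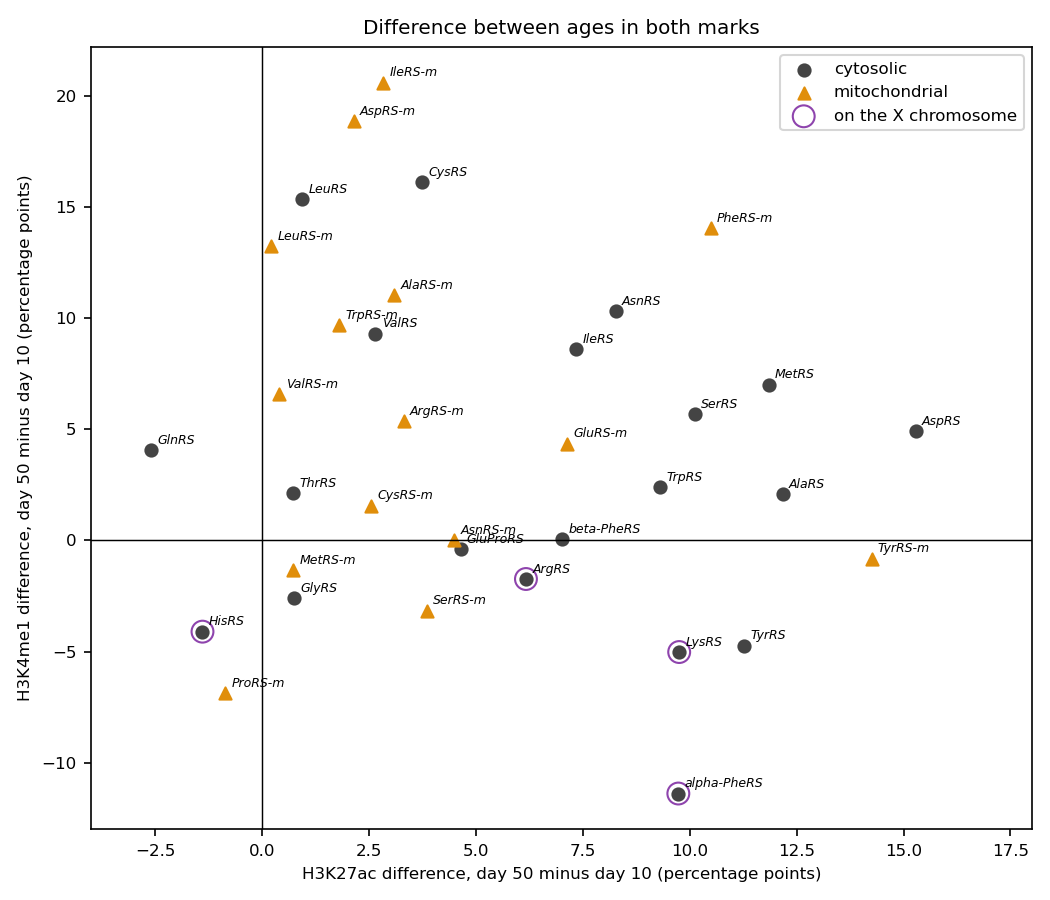
Difference between ages (day 50 minus day 10, percentage points of the gene region under peaks) in H3K27ac on the horizontal axis and in H3K4me1 on the vertical axis, 1 point per synthetase gene, circles for cytosolic and triangles for mitochondrial enzymes, with purple rings around the 4 genes on X. Of the 35 genes, 22 lie above 0 in both marks, and all 4 ringed genes lie below 0 for H3K4me1.

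H3K4me1 differed between the ages in both directions. Its share of the region was higher at day 50 for 23 synthetase genes, lower for 11 and equal for AsnRS-m, against 39.5% higher and 36.7% lower over all protein-coding genes. Over the 10652 genes with an H3K4me1 peak at either age it was higher for 51.7% and lower for 48% of them. The median difference was 4.06 points over the synthetase genes and 0.15 over all genes with an H3K4me1 peak. At least 5 points upward were found for 15 synthetase genes, against 2268 of those 10652 genes and 16.3% of all genes. At least 5 points downward were found for 3, against 1471 of the 10652 and 10.5% of all genes. The median difference was 1.69 with 500 bp beyond each end in place of 1000 bp and 2.12 when only the better-scoring 50% of the peaks were kept, so its size depended on the setting.

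IleRS-m, the mitochondrial isoleucyl-tRNA synthetase, showed the largest difference of the set, with an H3K4me1 share of 29.4% at day 50 and 8.8% at day 10. Its region (gene at 3L:16100280-16103482) held 4 peaks at day 50 and 1 at day 10. Of these a peak of 393 bp within the gene and one of 346 bp toward IntS9 had no counterpart at day 10, while one of 991 bp in IntS9 overlapped a day 10 peak that lay outside the region. AspRS-m, the mitochondrial aspartyl-tRNA synthetase, had 40.1% with 8 peaks at day 50 and 21.2% with 4 peaks at day 10. CysRS, the cysteinyl-tRNA synthetase, had 53.5% at day 50 and 37.4% at day 10. It had fewer peaks at day 50 (4, against 6 at day 10), and a peak of 1253 bp at day 50 stood where 2 peaks of 260 and 297 bp stood at day 10. LeuRS, which charges leucine tRNA and in mammals also senses leucine for TOR signalling, had 39.9% at day 50 and 24.6% at day 10, while its H3K27ac share was 12.2% and 11.3%. PheRS-m had 50.1% at day 50 and 36.0% at day 10. It was one of 22 genes with more of both marks at day 50. More H3K27ac with less H3K4me1 was seen for 9 genes, less H3K27ac with more H3K4me1 for 1, and less of both for 2. Of the 8935 genes with peaks of both marks, 40.3% had more of both at day 50, against 62.9% of the synthetase genes, and 31.3% had more H3K27ac with less H3K4me1, against 25.7% of the synthetase genes.

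The lower H3K4me1 shares at day 50 were led by alpha-PheRS, with 24.5% at day 50 and 35.8% at day 10, where the H3K27ac share was higher at day 50. A peak of 186 bp in CG17982 was present at day 10 with no counterpart at day 50. A peak of 1112 bp toward CG2129 reached into the region at day 10, while the day 50 peak that it overlapped lay outside, and within the gene body (X:8143904-8145602) the difference was -3.30 points. ProRS-m, the mitochondrial prolyl-tRNA synthetase, had 44.6% at day 50 and 51.4% at day 10. LysRS, the lysyl-tRNA synthetase, had 42.1% and 47.1%, TyrRS 55.7% and 60.4%, and HisRS 25.9% and 30.0%, at days 50 and 10. The highest H3K4me1 share at either age belonged to CysRS-m, 70.4% at day 50 and 68.9% at day 10. The lowest at day 50 was that of MetRS-m, 15.1%, against 16.4% at day 10, and the lowest at day 10 that of IleRS-m.

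The 4 synthetase genes on the male X chromosome, alpha-PheRS, LysRS, ArgRS and HisRS, all had a lower H3K4me1 share at day 50. Among peaks reaching -log10 q 5, HisRS was 2.11 points higher instead, which leaves 3 of 4. Of the 1636 X genes with an H3K4me1 peak, 62.4% were lower. Off the X, 23 of 31 synthetase genes were higher and 7 lower. Among all genes with an H3K4me1 peak, those on the X included, 51.7% were higher and 48% lower. H3K27ac was higher at day 50 at 3 of the 4 X genes, against 71.8% of the 1526 X genes with an H3K27ac peak. At day 50 its share exceeded that of H3K4me1 at alpha-PheRS, LysRS and HisRS. SerRS-m was the one other synthetase gene of which this was true. These 4 are 11.4% of the synthetase genes, and the same was true of 16% of all protein-coding genes at day 50.

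**Figure D3:**
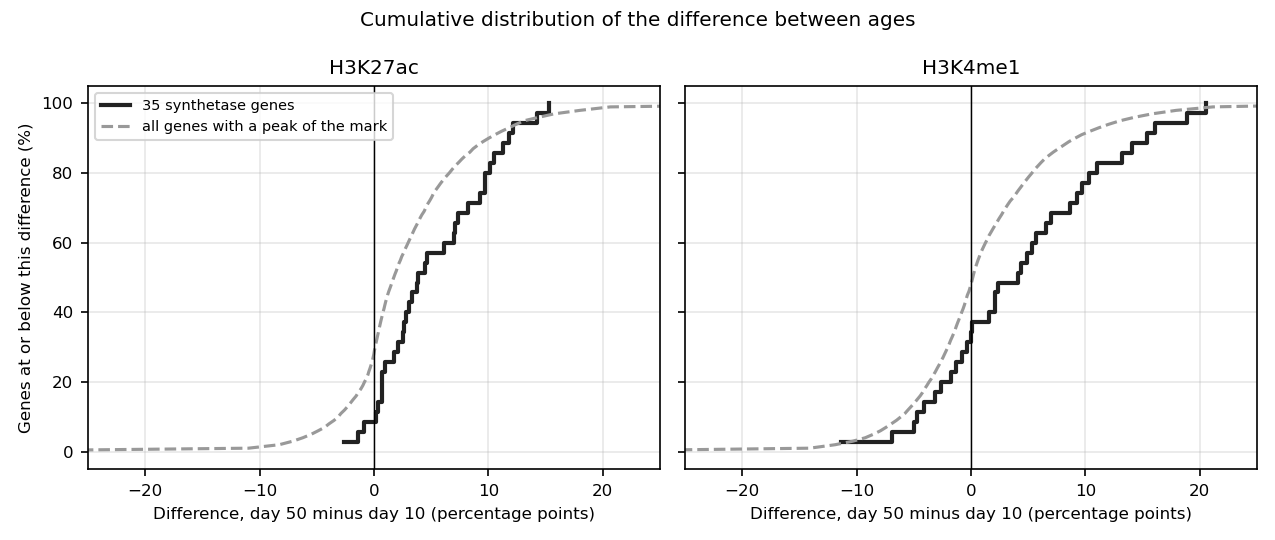
Cumulative percent of genes (vertical axis) by the difference between ages in percentage points (horizontal axis, day 50 minus day 10), for the 35 synthetase genes (solid) and for all genes with a peak of the mark at either age (dashed), H3K27ac left and H3K4me1 right. The medians are 3.84 for the synthetase genes and 1.73 for all such genes in H3K27ac, and 4.06 and 0.15 in H3K4me1.

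The bases covered at one age only show how the peaks differed. In the 35 regions, 10.3 kb lay under H3K27ac peaks at day 50 only and 1.23 kb at day 10 only. Over all protein-coding gene regions, in which neighbours count peaks more than once, these were 2837 kb at day 50 only and 2402 kb at day 10 only. Of the 10.3 kb, 5.83 kb belonged to peaks that overlapped a day 10 peak and 4.49 kb to 18 of 91 peaks that overlapped none. At day 10 only 1 of 77 peaks, that of 163 bp inside the lower end of MetRS-m, had no counterpart at day 50. For 69 H3K27ac peaks that matched 1 to 1 between the ages, the median width was 426 bp at day 50 and 353 bp at day 10, and 51 were wider and 17 narrower at day 50. Thus 73.9% were wider at day 50, against 51.7% of the 17570 such pairs over the whole lists.

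For H3K4me1, 14.2 kb of the regions lay under peaks at day 50 only and 5.83 kb at day 10 only, and 25 of 132 peaks at day 50 had no counterpart at day 10, against 6 of 121 the other way. Of 74 matched H3K4me1 peaks 41 were wider at day 50 (55.4%, against 42.2% over the whole lists). Gene bodies make up 61.9% of the regions. They held 64.9% of the H3K27ac bases covered at day 50 only and 59.5% of those at day 10 only, both near that share, and for H3K4me1 71.6% at day 50 only and 61.3% at day 10 only.

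**Figure D4:**
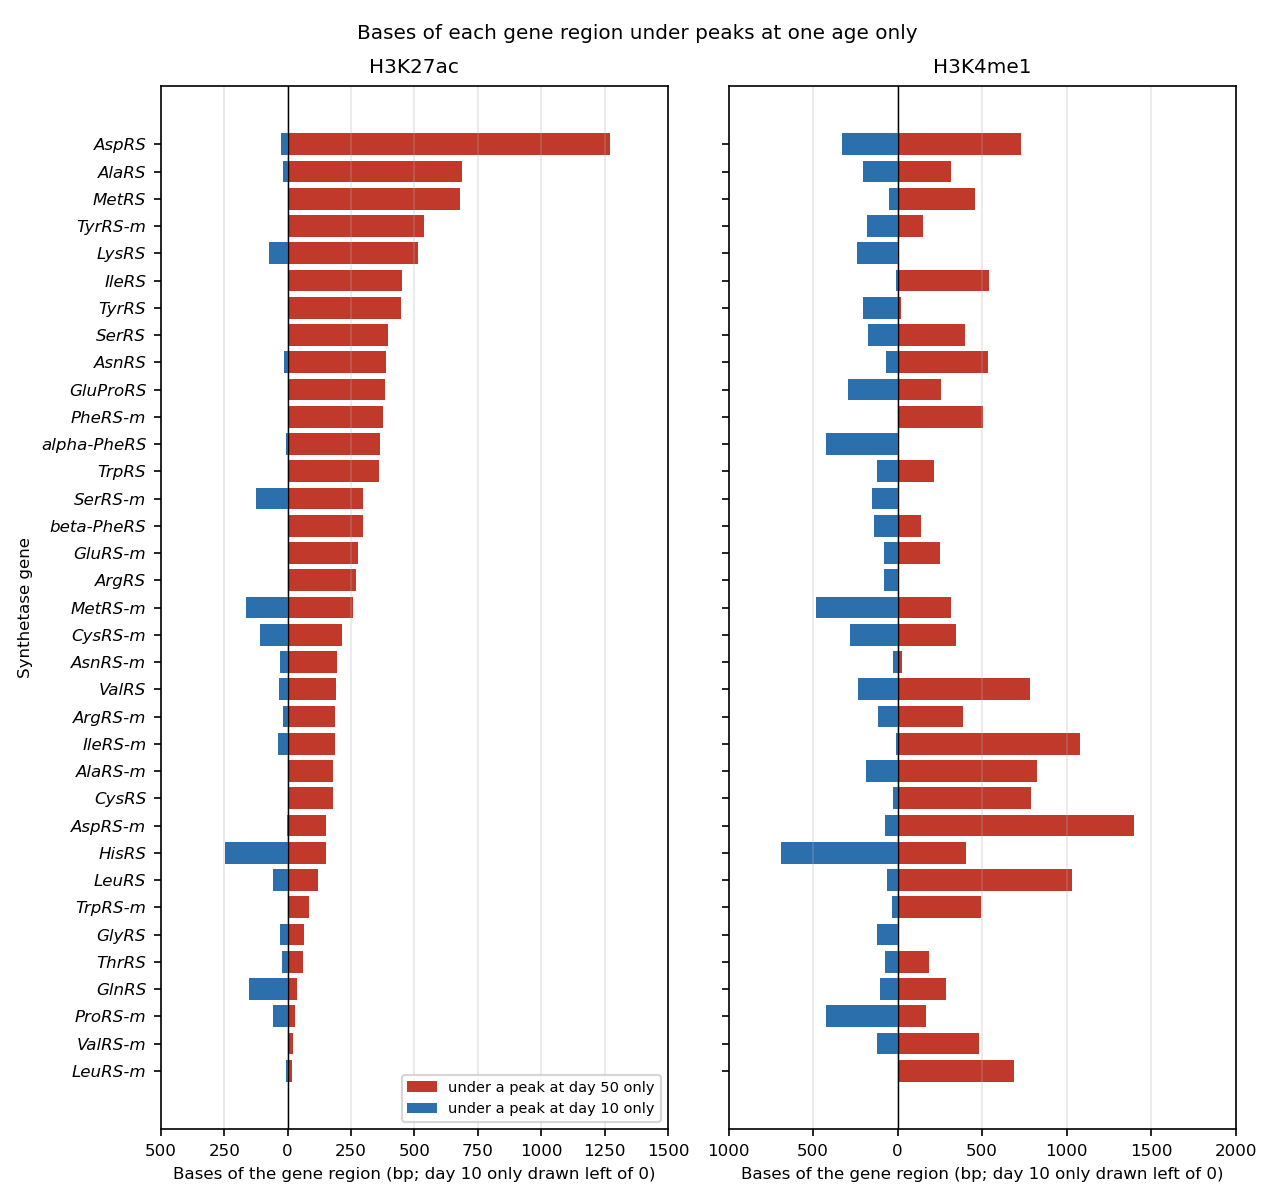
Bases of each synthetase gene region under H3K27ac peaks (left) and H3K4me1 peaks (right) at day 50 only, drawn right of 0 in red, and at day 10 only, drawn left of 0 in blue. For H3K27ac the red bars total 10.3 kb and the blue bars 1.23 kb, with AspRS the longest red bar at 1273 bases; for H3K4me1 they total 14.2 and 5.83 kb.

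The marks had a common layout along the synthetase genes. A summit of an H3K27ac peak lay within 500 bp inside a gene end for 33 of 35 genes at day 50 and 31 at day 10, against 44.3% and 41.4% of all protein-coding genes and 67.3% and 63.0% of those with an H3K27ac peak. For the strongest such peak of each gene, the summit lay at a median of 291 bp inside the end at day 50 and 313 bp at day 10. The end with the strongest of these peaks at either age is called the acetylated end here. The gene list gives no strand, so whether that is where transcription starts was not determined. AspRS alone had no acetylated end. LysRS had the strongest such peak at day 50, with a fold of 5.11 and its summit 377 bp inside the upper end, in the top 1.05% of its list. TrpRS, the tryptophanyl-tRNA synthetase, had a fold of 4.90 at day 50 with the summit 195 bp inside.

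At 300 bp inside the acetylated end, 32 of 34 genes lay under an H3K27ac peak at day 50 and 28 at day 10, which follows in part from how the end was chosen. At 600 bp inside it was 11 of 34 at day 50 and 3 of 34 at day 10 (32.4% and 8.82%), against 32.6% and 25.8% of the 6554 genes with an acetylated end. At 1000 bp inside it was 1 and 0 genes, against 16.7% and 14.8% of all genes with an acetylated end. For both marks these distances were counted without regard to gene length. In any of the 6554 genes shorter than the distance, the point lies past the other gene end. The shortest synthetase gene, PheRS-m, measures 1595 bp, so the 2 sets are not fully alike in position. At the acetylated end itself both marks were nearly absent: 1 of 34 genes lay under an H3K27ac peak and 0 under an H3K4me1 peak at either age. H3K4me1 played no part in the choice of the end. At 600 bp inside, 28 of 34 genes lay under an H3K4me1 peak at day 50 and 29 at day 10. Of all genes with an acetylated end, 47.0% and 51.1% did so. At 1000 bp inside it was 32 of 34 at day 50 and 29 at day 10, or 94.1% and 85.3%, against 53.4% and 54.1% of all genes with an acetylated end. That H3K27ac lay just inside the acetylated end follows from how the end was chosen, in the 34 genes and in all 6554. H3K4me1 was highest farther from the end on its inner side in both sets. Among the 6554 genes H3K27ac was highest at 300 bp, at 81.8% at day 50 and 74.5% at day 10. H3K4me1 was highest at 850 bp at day 50 and at 800 bp at day 10, and at the end itself covered 7.60% and 6.84% of them.

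**Figure D5:**
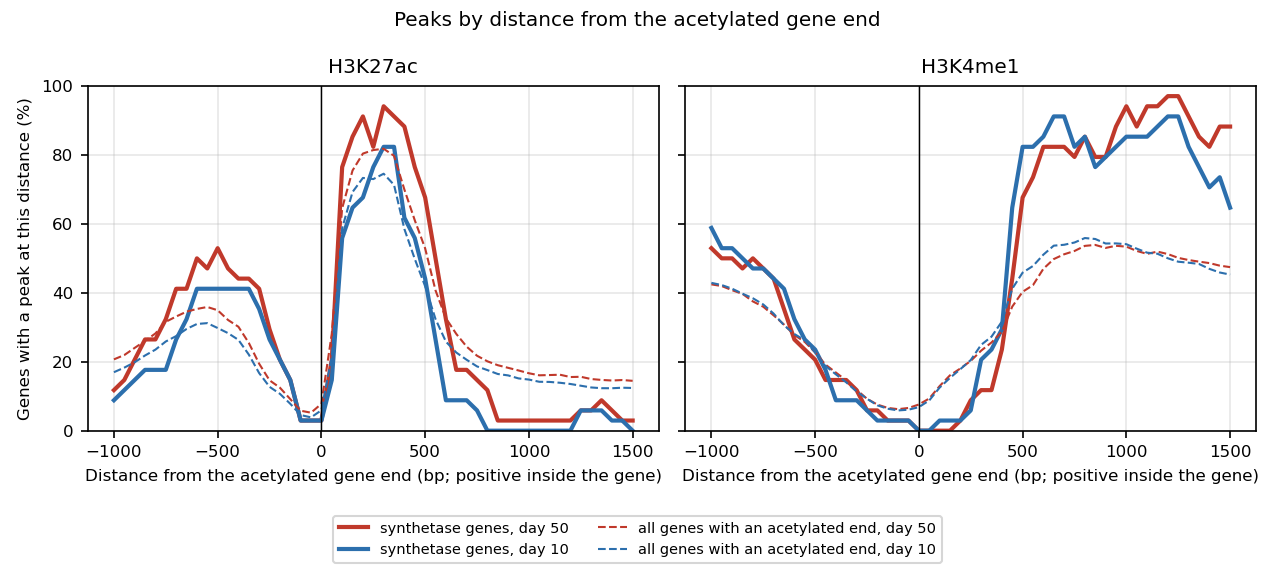
Percent of genes under a peak (vertical axis) by distance from the acetylated gene end in bp (horizontal axis, positive inside the gene), for H3K27ac (left) and H3K4me1 (right), red for day 50 and blue for day 10, solid for the 34 synthetase genes with such an end and dashed for all 6554 genes with one. H3K27ac is highest at 300 bp, at 94.1% of synthetase genes at day 50 and 82.4% at day 10. H3K4me1 is at 94.1% and 85.3% of them at 1000 bp inside. At the end itself H3K27ac is at 2.94% and H3K4me1 at 0% of them, at both ages. In any gene shorter than a distance, the point lies past the other gene end.

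Part of the acetylated bases carried both marks. Of the bases under H3K27ac in synthetase regions, 35.5% at day 50 and 34.5% at day 10 also lay under H3K4me1, against 51.1% and 51.9% over all protein-coding gene regions. The share was 27.6% and 23.8% at days 50 and 10 in the cytosolic set and 49.1% and 50.5% in the mitochondrial set.

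Another gene overlapped the acetylated end or lay within 500 bp on its outer side for 33 of the 34 synthetase genes. The same held for 70.6% of all genes with an acetylated end. The exception was ValRS, at 512 bp from Kdm4B. At HisRS, SerRS and SerRS-m the acetylated end lay inside the other gene (Bx, CG17260 and Nagk), which counts as a gap of 0. The median gap was 181 bp, against 283 bp. GluRS-m (3L:16415292-16417177) and TyrRS (3L:16417349-16419302) are themselves neighbours with 171 bp between them, so that a peak of 740 bp at day 50, and of 463 bp at day 10, inside the upper end of GluRS-m counts for both.

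Of the cytosolic enzymes, 8 have human counterparts in the multi-synthetase complex, a particle in which several synthetases are held by scaffold proteins: GluProRS, IleRS, LeuRS, MetRS, GlnRS, LysRS, ArgRS and AspRS. The H3K27ac share was higher at day 50 for 7 of these 8, all but GlnRS, and for 71.6% of all genes with an H3K27ac peak. GluProRS, one chain that charges glutamate and proline tRNA, had 7.90% at day 50 with 3 peaks and 3.26% at day 10 with 1. IleRS had 14.7% at day 50 and 7.32% at day 10, ArgRS 9.94% and 3.77%, and LysRS 44.7% and 35.0%. The H3K4me1 shares of the 8 genes were higher for 5 and lower for 3, against 51.7% higher among all genes with an H3K4me1 peak. Of the scaffold genes, AIMP1 had 30.8% under H3K27ac at day 50 and 18.8% at day 10, AIMP3 14.8% and 11.3%, and AIMP2 10.8% and 9.73%.

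Variants in the human counterparts of GlyRS, TyrRS, AlaRS, HisRS and MetRS are linked to inherited neuropathy. H3K27ac was higher at day 50 at 4 of these 5, all but HisRS, near the 71.6% of all genes with an H3K27ac peak, and H3K4me1 at AlaRS and MetRS. GlyRS, the glycyl-tRNA synthetase, differed little, with an H3K27ac share of 28.3% at day 50 and 27.5% at day 10, and an H3K4me1 share of 41.0% at day 50 and 43.6% at day 10.

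The remaining synthetase genes took the same direction in H3K27ac with values inside those ranges. AsnRS, ValRS, CysRS, ThrRS, LeuRS and TrpRS ranged from 12.2% to 18.7% at day 50 and from 6.38% to 12.9% at day 10. AlaRS-m, ArgRS-m, AsnRS-m, AspRS-m, CysRS-m, GluRS-m, IleRS-m and TrpRS-m ranged from 7.82% to 30.0% at day 50 and from 5.0% to 26.7% at day 10.

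Other genes of tRNA charging, amino acid supply and the response to uncharged tRNA were taken from a list of 28 symbols, of which 27 were in the gene table. H3K27ac was higher at day 50 for 21 of them and lower for 6, with a median difference of 2.79 points. Those 77.8% are near the 71.6% of all genes with an H3K27ac peak, whose median was 1.73. The glutamine synthetase gene Gs1 had 50.0% at day 50 and 23.4% at day 10, the asparagine synthetase gene AsnS 41.9% and 28.3%, and the amino acid transporter gene JhI-21 20.7% and 7.17%. These enzymes and carriers supply substrates of the synthetases. The other listed genes of amino acid synthesis and transport were mixed. Gs2, mnd and slif were higher at day 50, by 3.95, 2.79 and 0.59 points. The genes aay, path and CG6287 were lower, with differences of -2.30, -0.98 and -0.19 points. Thor, listed for amino acid stress sensing, had 43.6% at day 50 and 23.1% at day 10. In the other direction, eEF1alpha2, which carries charged tRNA to the ribosome, had 22.8% at day 50 and 25.8% at day 10. Gcn2, the kinase that binds uncharged tRNA, had an H3K27ac share of 5.90% at day 50 and 6.02% at day 10, and an H3K4me1 share of 18.5% at day 50 and 11.8% at day 10. For crc, the fly ATF4, through which this response acts on amino acid genes, the H3K27ac values were 17.5% at day 50 and 15.1% at day 10. H3K4me1 was higher for 17 of the 27 genes and lower for 10, with a median of 1.80, against 51.7% higher and a median of 0.15 among all genes with an H3K4me1 peak. PEK, the other eIF2alpha kinase gene, had 48.3% at day 50 and 29.8% at day 10.

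The genes of ribosomal proteins and of translation initiation factors, other gene sets of translation, were set beside the synthetase genes. H3K27ac was higher at day 50 for 32 of 35 synthetase genes, for 65 of 73 mitochondrial ribosomal protein genes (median difference 5.13) and for 72 of 92 cytosolic ones (2.14). The cytosolic ribosomal share, 78.3% of 92 genes, includes genes without a peak, and stands against 47.1% of all protein-coding genes. Of these 92 genes 87 had an H3K27ac peak, so that 72 of 87 stand against 71.6% of all genes with one. H3K4me1 was higher for 23 and lower for 11 synthetase genes, but higher for 24 and lower for 48 mitochondrial ribosomal protein genes (median -1.81). It was higher for 33 and lower for 52 cytosolic ones (-1.06). Among all genes with an H3K4me1 peak 51.7% were higher and 48% lower, with a median of 0.15. Of 44 translation initiation factor genes, H3K27ac was higher for 27 and lower for 8, and H3K4me1 higher for 17 and lower for 20. Only 35 of the 44 had an H3K27ac peak and 37 an H3K4me1 peak. Thus 27 of 35 stand against 71.6%, and 17 of 37 against 51.7%, of all genes with a peak of the mark. These differences between sets were not tested, as no spread between replicates is known.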

How the data were processed

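The authors deposited 1 narrowPeak list per mark and age, and the peak names show that both replicates were pooled before peak calling. Per the submitters' processing notes, the build was BDGP6 and the tools included MACS2 2.1.1, STAR 2.5.3a, deepTools, Trim Galore and FastQC, with no roles given. Fold enrichment, -log10 q, a whole-number score and a summit offset per peak were deposited by the authors; fold and -log10 q are the authors' values and were used only to describe or filter peaks within a list. Input samples and depth were not analysed here. How many peaks are called, and how wide they are, depends on depth, so age and depth of a list cannot be told apart.

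Gene positions came from RefSeq (Release 6, to which BDGP6 corresponds), without strand. Windows at gene starts were therefore replaced by a 500 bp distance from either end of a gene, and promoter motifs were not analysed here. Merged peak bases were counted per gene region in Python 3.11.15 with pandas 2.3.3 and numpy 2.4.6, tested on simulated data. No test was made. Members, lists, acetylated ends and named genes (the 5 largest differences in each direction per mark, extremes, and members of the groups named) were chosen with earlier results of these data known.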

Additional observations from a re-analysis of the deposited data

How the results depend on the processing

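With no list of a single replicate, no replicate could be left out. No paired analysis was possible because both replicates were pooled before peak calling. All 15 synthetase genes with an H3K27ac difference of at least 5 points kept its direction with -log10 q of at least 5, the upper 50% of each list, equal numbers of peaks, gene bodies alone, 500 bp flanks, and bases in other genes left out. The number with more H3K27ac at day 50 was 27 to 33 under these, and the number with less was 7 in the upper 50%, where 67.9% of all genes with a peak were higher. The H3K4me1 median of 4.06 was 2.12 both for peaks reaching -log10 q 5 and in the upper 50%, 2.22 with gene bodies alone and 1.69 with 500 bp flanks. The H3K27ac difference was larger in the cytosolic gene for 7 of 12 pairs with bases in other genes left out; this comparison was added after seeing the data. Reversed H3K4me1 differences in the upper 50% were -2.43 at AlaRS-m, -0.40 at TrpRS-m, -2.10 at ValRS and -2.91 at SerRS. That of SerRS was also -2.91 with -log10 q of at least 5, -2.93 with gene bodies, -1.92 with 500 bp flanks and -2.98 with bases in other genes left out. Sizes held less well than directions. They were compared over the single-gene differences of both marks, together with the counts of X-linked genes. With gene bodies alone 22 stayed within 1.5-fold, 49 did not, and 1 difference of at least 5 points reversed. With bases in other genes left out these numbers were 26, 45 and 1. The causes were not tested. Windows of 250 bp before to 50 bp after a gene start were not run, as strand is not given.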
